A study of Mus musculus with 2 samples.

Results

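Uox, the mouse gene of urate oxidase, was 1 of the 379 genes of a Xenium In Situ panel measured in mouse back skin. Its members here were the transcripts decoded as Uox with a quality score of at least 20, which were 29 of 106 deposited Uox calls in the mock section and 29537 of 43609 in the SspA+HDM section. The gene was chosen by its ratio between the sections, the highest of the panel, so that ratio is given as a description and supports nothing. Mice were C57BL/6. Their shaved and depilated back skin received PBS on its surface (mock) or SspA together with HDM (SspA+HDM), agents that the labels name without further description, and was taken at day 7. The labels name no age. There was 1 section of 5 µm per treatment, each made of 2 strips of skin, so no test could be run between treatments. Strips are parts of a section and not replicates, and intervals are exact 95% intervals that cover counting error only.

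Urate oxidase is a peroxisomal enzyme that oxidises urate, the end of purine breakdown, on the way to allantoin. It is best known from the liver of most mammals, and humans and other apes have lost a working copy. The epidermis is renewed from a basal layer, whose cells move outward through spinous and granular layers while they switch from adhesion genes to genes of the cornified envelope, the cross-linked protein shell of the skin surface. RefSeq places Uox as a protein-coding gene on chromosome 3, from 146597149 to 146631483 of GRCm38.p6, a span of 34335 bp. The sequences of the panel's probes were not analysed here.

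Inside cell outlines the mock section held 25 Uox transcripts of 2325265 panel transcripts and the SspA+HDM section 29195 of 7929474. This was 10.8 CPM (transcripts per 1000000 of the panel; 6.96 to 15.9) in mock and 3682 CPM (3640 to 3724) in SspA+HDM. The strips of a section were alike, with 13.6 and 8.18 CPM in mock and 3714 and 3655 CPM in SspA+HDM. The ratio of SspA+HDM over mock was 342 (232 to 529), or 8.42 on the log2 scale (7.86 to 9.05). Among the 346 genes that reached 100 transcripts in 1 section or the other, 51 (14.7%) had a ratio of 2 or more, and nothing is read from the place of Uox among them, since this contrast chose it. The mock count lay below that of the highest control feature of the section, which had 34, so the mock level behind the ratio was within the range of false calls. The size of the ratio moved with the denominator and the quality rule. It was 6.97 on the log2 scale with all calls, 7.54 over nuclei, 9.72 in epithelial cells, where the level was 6.81 CPM in mock and 5765 CPM in SspA+HDM, and 10.08 per mm of strip, where 1.81 and 1957 transcripts were found.

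The calls just outside the quality rule differed between sections. In SspA+HDM, 67.7% of Uox calls reached a score of 20, beside 78.1% of all gene calls, and in mock 27.4% did, beside 79.4%. The 14072 SspA+HDM calls below 20 lay where the better calls lay: 93.2% of those in cells were in clusters 5, 11 and 16, described below, against 93.1% of the calls at 20 or above. Of the 75 mock calls below 20 in cells, 1 was in a cell that also held a Uox transcript at 20 or above.

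The 25 mock transcripts were in 25 cells, 1 in each. Of these cells, 18 were non-epithelial and 7 epithelial, and 5 were in cluster 20, an unnamed cluster led by Retnla and Igfbp6. The median depth of the transcripts below the outer edge of the epithelium was 136 µm, and 2 of the 25 lay within 20 µm. In mock keratinocyte-like cells Uox stood at 6.32 CPM (1.72 to 16.2; 4 transcripts in 3480 cells), against 13.9 CPM (8.26 to 22.0) in mock non-epithelial cells. In mock, Uox thus stood no higher in keratinocyte-like cells than in non-epithelial cells. Clusters 5, 11 and 16, which carried most Uox in SspA+HDM, had only 21 mock cells. These held 0 Uox, with an upper limit of 736 CPM, too few to show the mock level in such cells.

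In SspA+HDM, 5926 of 44282 cells with at least 20 transcripts held Uox (13.4%; 13.1 to 13.7), against 25 of 15306 in mock (0.163%; 0.106 to 0.241). With each cell thinned to 100 transcripts, and 17145 and 7067 shallower cells left out, the shares were 13.6% and 0.104%. Single cells held up to 55 Uox transcripts. Of the positive cells 1869 held 1 transcript, 1992 held 2 to 4, 1179 held 5 to 9, 712 held 10 to 19 and 174 held 20 or more. The last group, 2.94% of the positive cells, carried 15.2% of the Uox transcripts. The share of all cells was 9.16% when at least 2 transcripts were required and 4.66% when at least 5 were, and 8.45% held Uox over the nucleus.

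Cells were clustered without Uox, and clusters were named from marker genes. Keratinocyte-like clusters held 28813 of the 29195 transcripts (98.7%), at 7745 CPM, and 42.2% of their 13266 cells were positive. Epithelial cells of other clusters, such as those of hair follicles, held 99 transcripts, and non-epithelial cells 273. Of the keratinocyte-like cells, those of clusters 11, 16 and 5 carried 27188 transcripts, or 93.1% of all Uox. These 6858 cells had almost no counterpart in mock, where the same clusters held 21 cells with 0 Uox. A cluster that lies in 1 section can reflect that section as a whole, and treatment and section cannot be told apart here.

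Cluster 11 was the outermost, with a median cell depth of 8.37 µm below the edge, and was led by Stfa2l1, Calm5 and Cnfn. Its 2169 cells held 14832 Uox transcripts, 50.8% of all, at 16036 CPM (15779 to 16297), and 84.0% were positive. Cluster 16 followed at 27.9 µm, led by Stfa2l1, Calm5 and Ivl. It held 7871 transcripts in 1797 cells, at 10536 CPM (10305 to 10772), and 77.6% of the cells were positive. Cluster 5 lay at 46.4 µm and was led by Cstdc4, Stfa2l1 and Calm5. It held 4485 transcripts in 2892 cells, at 5216 CPM (5065 to 5371), and 51.5% were positive. The level of whole clusters was thus lower with each step inward, by more than counting error. Both strips had this order: 16110 and 15980 CPM in cluster 11, 10896 and 10249 in cluster 16, and 5483 and 4988 in cluster 5. Within cluster 11 the level varied more widely along the strips, from 1731 to 46604 CPM in strip 1 and from 1100 to 40838 CPM in strip 2.

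The keratinocyte-like clusters 10 and 2, which lay deeper, held less. Cluster 10, at 103 µm, stood at 1566 CPM (1446 to 1693). It was led by Ivl, Slc5a1 and Calm5, with Ivl at 21698 CPM against 10911 CPM in cluster 5. Its depth thus did not make it an inner layer by its genes. Cluster 2, at 60.1 µm, in which the basal adhesion gene Col17a1 reached 69448 CPM against 293 CPM in cluster 11, stood at 1269 CPM (1191 to 1351). Their positive shares were 13.6% and 14.3%. Cluster 4, an unnamed epithelial cluster led by Sostdc1 and Sox9, stood at 194 CPM (148 to 250), and hair-follicle-like cells at 36.5 CPM (20.9 to 59.3). In the unnamed epithelial cluster 25, led by Crct1, Ly6g6c and Cd36, 0 of 406 cells held Uox, which allows a share of up to 0.739% (3 of 406) or, by the exact interval, 0.904%. That cluster had a median of 305.5 transcripts per cell. Thinned to 100 transcripts a cell, the positive shares were 64.0% in cluster 11, 52.6% in cluster 16, 31.8% in cluster 5, 9.66% in cluster 2 and 8.96% in cluster 10, which kept the order of the first 3.

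**Figure D1:**
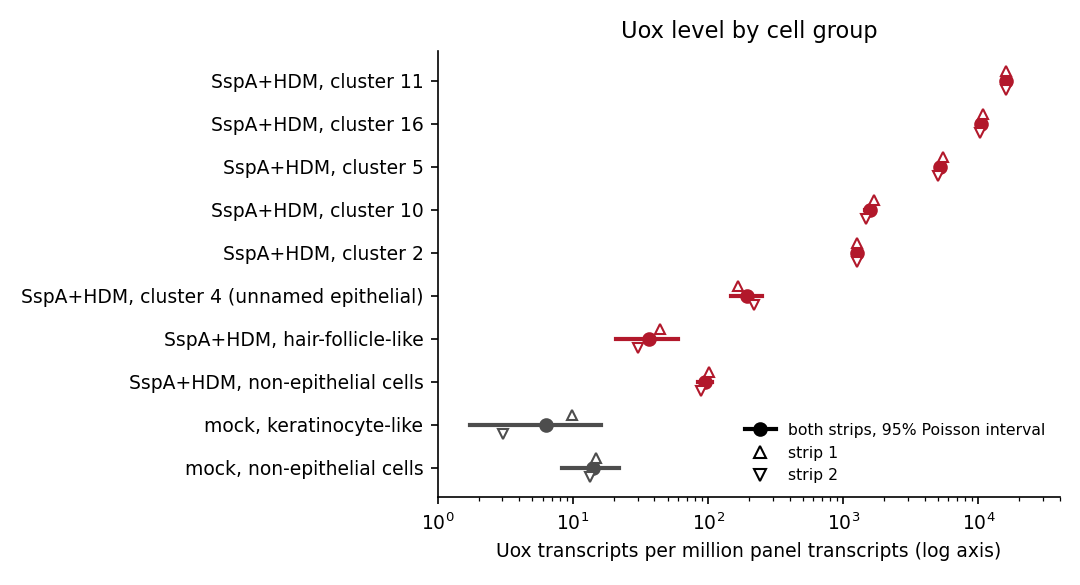
Uox CPM (log axis) in groups of SspA+HDM cells (red) and mock cells (grey), with filled points for both strips together, bars for the 95% Poisson interval and triangles for each strip. Cluster 11 stood highest at 16036 CPM, clusters 16 and 5 followed at 10536 and 5216 CPM, and the mock groups stood at 6.32 and 13.9 CPM.

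Outside the epithelium Uox was low. Cluster 0, the largest non-epithelial cluster, left unnamed and led by Coch, Tnfaip6 and Lum, held 86 of the 273 transcripts in 5385 cells, at 216 CPM (172 to 266). Macrophage- or monocyte-like cells stood at 190 CPM (124 to 278), blood-endothelial-like at 158 (110 to 220), mural-like at 135 (54.3 to 278), lymphatic-endothelial-like at 111 (22.9 to 325), adipocyte-like at 31.7 (18.5 to 50.7) and skeletal-muscle-like at 20.5 (13.4 to 30.01). The intervals of neighbours in this order overlapped. Of all 21270 non-epithelial cells 235 were positive, 1.10% (0.969 to 1.25) at a median depth of 89 transcripts, against 0.216% in mock at a median of 96. The share was higher near positive keratinocyte-like cells. It was 7.89% of 266 cells within 15 µm of one, 2.96% of 3380 cells at 15 to 50 µm, 1.09% of 4144 cells at 50 to 100 µm and 0.512% of 13480 cells farther away. Whether transcripts assigned across cell borders made up these calls was not tested. Of the non-epithelial transcripts, 48 were in cluster 26, 78 unnamed cells of strip 1 in which muscle genes such as Actn3 stood beside Stfa2l1, at 2124 CPM (1566 to 2815).

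Markers of other cell types were low in clusters 5, 11 and 16. The summed level of the 4 T cell markers on the panel was 207 CPM there and 1465 CPM over all SspA+HDM cells. For the 6 macrophage or monocyte markers it was 144 and 5315 CPM, for the 7 fibroblast markers 535 and 42298 CPM, and for the 4 skeletal muscle markers 391 and 67938 CPM. The 5 granulocyte markers were the exception among these lists, at 3931 and 3054 CPM. In cluster 16 their level came from Cxcr2 (3108 CPM) and in cluster 11 from Il1r2 (4096 CPM), while Csf3r, the receptor of the granulocyte growth factor G-CSF, stood at 5.35 and 11.9 CPM.

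Across 23012 epithelial cells of the SspA+HDM section, the gene most like Uox was Stfa2l1, which encodes a stefin, an inhibitor of cysteine proteases (Pearson r = 0.67 of log levels scaled to each cell's total). It was followed by Cnfn, a cornified envelope protein (0.63), Calm5, an epidermal calmodulin-like protein (0.59), Them5, a thioesterase (0.55), and Serpinb11, a serpin (0.52). The envelope precursor Ivl (0.51), the granular-layer protease Asprv1 (0.48), the main envelope protein Lor (0.46), the keratin Krt16 (0.45) and Crct1 (0.44) completed the first 10. The lowest of 133 genes were Anxa2 (-0.47), Fxyd3 (-0.42), Trim29 (-0.42), the hemidesmosome collagen Col17a1 (-0.39) and Stmn1 (-0.38). These correlations are across cells of 1 section, which share its depth and its layers. Each strip alone gave 9 and 10 of the same first 10 genes.

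Within cluster 11, the outermost cluster, the order was different. Its cells still differed in depth, with quartiles of -2.43 and 21.3 µm, and the part of depth in this order was not tested. Only 4 of those 10 genes were among the first 10 there. Krt16 (0.37), Stfa2l1 (0.36) and Serpinb11 (0.29) remained positive, whereas Lor (-0.34) and Asprv1 (-0.20) turned negative. Uox thus went with Lor across the layers and against it among the outermost cells. Both comparisons used Uox levels per cell, and the restriction to cluster 11 was added after the data were seen.

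The genes like Uox differed among themselves in how they stood between the sections. Stfa2l1 had 100 transcripts in mock and 75408 in SspA+HDM (ratio 221; 182 to 272) and the other stefin on the panel, Cstdc4, had 342 and 104811 (89.9; 80.8 to 100.2). Krt16 had a ratio of 20.7 (20.02 to 21.3) and Cnfn one of 10.97 (10.3 to 11.7). Them5 stood at 4.99, Serpinb11 at 4.24 and Calm5 at 3.02. Lor stood at 1.28, Asprv1 at 1.83, Crct1 at 1.90 and Ivl at 1.95. The share of all 346 genes that were at least 2-fold higher was 14.7%, and the share at least 2-fold lower was 12.7% (44 genes). By layer, 1 of 6 basal genes on the panel (Aqp3, a water and glycerol channel, 4.37) was at least 2-fold higher. Among 6 spinous genes 2 were higher (Krt16 and Calm5) and 1 lower (Krt13, 0.376), and among 5 granular and cornified genes 1 was higher (Cnfn) and 1 lower (Lce1m, 0.141). These lists were chosen with earlier results of these data known, and their layer names were not taken from position in these sections. In SspA+HDM, 77.5% of Krt13 and 90.3% of Sox9, a gene of the basal list, lay more than 100 µm deep. Calm5 stood at 50242 CPM in cluster 11 and 19247 CPM in cluster 5.

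Little of the purine pathway was on the panel. Of 34 other genes in a list of purine and urate metabolism and transport, 2 were measured, the organic anion transporters Slc22a6 and Slc22a8. They had 25 and 30 transcripts in mock and 86 and 67 in SspA+HDM, below the highest control feature of each section (34 and 127). The peroxisomal oxidase Dao had 33 and 104 transcripts, also below it. No enzyme that makes or further degrades urate was measured, so these data do not show whether other steps of the pathway accompany Uox. Of 5 liver parenchyma genes on the panel, 2 (Tat and Ambp) stayed below the highest control feature in both sections, and 1 of the 3 others, Hpx, had a ratio of at least 2 (3.28; 2.51 to 4.36), with 31 of its 660 SspA+HDM transcripts in clusters 5, 11 and 16. Hp, which encodes haptoglobin, stood at 4237 CPM in mock and 6994 CPM in SspA+HDM, but only 95 of its 55459 SspA+HDM transcripts were in clusters 5, 11 and 16. A further 14 genes known from the liver were picked from the panel's names after the panel was seen. Of the 12 with at least 100 transcripts in a section, 2 had a ratio of at least 2 and 2 of at most 0.5. Their median log2 ratio was 0.01. Over all 346 genes the shares were 14.7% and 12.7%, with a median of 0.05, so nothing is read from the counts of either liver list. Abcb11, the bile salt export pump of the liver, was singled out from these after its values were seen: it had 31 transcripts in mock and 416 in SspA+HDM (ratio 3.94; 2.73 to 5.87), of which 306 were in clusters 5, 11 and 16.

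Depth was measured from the outer edge of the epithelium. The median Uox transcript of the SspA+HDM section lay 22.2 µm below it, with the middle 50% between 8.76 and 43.2 µm, and the strips gave 21.6 and 22.9 µm. In all, 80.1% of the transcripts were within 50 µm and 4.73% beyond 100 µm. Uox was the 10th most superficial of 229 genes with at least 1000 transcripts. Cnfn (14.4 µm) and Lor (14.8 µm) lay farther out, Stfa2l1 (23.8 µm), Calm5 (23.9 µm) and Ivl (27.6 µm) slightly deeper, and Krt16 (36.5 µm), Cstdc4 (43.0 µm), Aqp3 (64.2 µm) and Col17a1 (96.8 µm) well below. The absolute depth depended on how the edge was drawn: the Uox median was 11.1 µm with an edge at the 5th percentile of epithelial cells and 32.1 µm at the 0th, against the 2nd used here. The order from the surface was 10th under each of these edges.

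Across epithelial cells the level was 13800 CPM outside the smoothed edge, 15564 CPM at 0 to 10 µm, 13118 CPM at 10 to 20 µm, 9341 CPM at 20 to 30 µm and 5492 CPM at 40 to 50 µm. It was 3255 CPM at 80 to 100 µm and 213 CPM (185 to 243) beyond 150 µm. Lor was highest outside the edge (83931 CPM) and Cstdc4 at 30 to 40 µm (35191 CPM), so the profile of Uox lay between those of Lor and Cstdc4. Ivl, an envelope precursor made earlier in differentiation, peaked at 10 to 20 µm (39689 CPM), inward of Uox. In mock epithelial cells, 4 Uox transcripts were found in the outer 50 µm, which held 660436 panel transcripts.

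**Figure D2:**
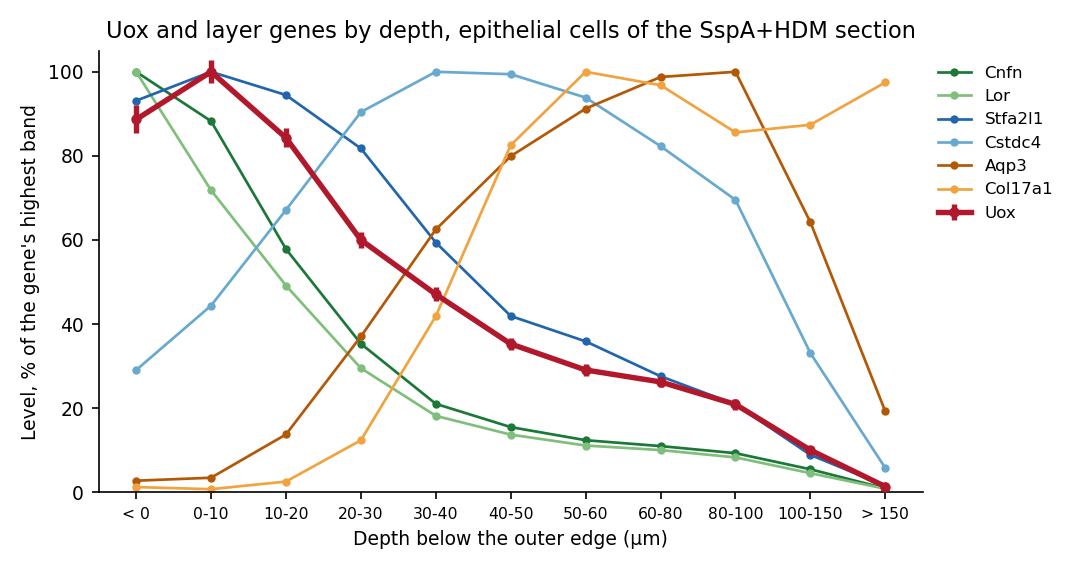
Level of Uox and 6 layer genes in SspA+HDM epithelial cells by depth below the outer edge (µm), each as a percentage of the gene's own highest band, with 95% Poisson bars on Uox. Uox peaked at 0 to 10 µm, as did Stfa2l1, inward of Lor and Cnfn and outward of Cstdc4, Aqp3 and Col17a1.

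Deep Uox was unevenly spread along the strips. Of the 1381 transcripts beyond 100 µm, 596 were in cells of clusters 5, 11 and 16, that is, in cells that elsewhere made up the outer layers. Among keratinocyte-like cells more than 50 µm deep, the median interval of 200 µm stood at 1272 CPM in strip 1 and 1541 CPM in strip 2. The interval at 1800 to 2000 µm stood at 8824 and 10272 CPM, with 209 and 401 transcripts, and the interval at 6000 to 6200 µm at 10044 and 9887 CPM, with 696 and 664. Both intervals were picked from the map of cells. They held 9.09% and 12.8%, and 30.3% and 21.2%, of the deep Uox of strips 1 and 2. In strip 2 the interval at 6400 to 6600 µm was as high, at 10083 CPM with 510 transcripts, against 4271 CPM in strip 1. The broad stretch from 5200 to 7200 µm held 75.3% and 75.7% of the deep Uox. Deep cells were unevenly spread too. The interval at 1800 to 2000 µm held 123 of 3054 in strip 1 and 206 of 3613 in strip 2, and that at 6000 to 6200 µm 254 and 278. The outer epithelium was 97.6 and 94.5 µm thick at the first interval and 139 and 149 µm at the second. Its median thickness was 81.4 and 81.0 µm. The measure failed at 2200 to 2400 µm of strip 1, where it gave -2.60 µm. The part of thickness in the shares of deep Uox was not tested.

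**Figure D3:**
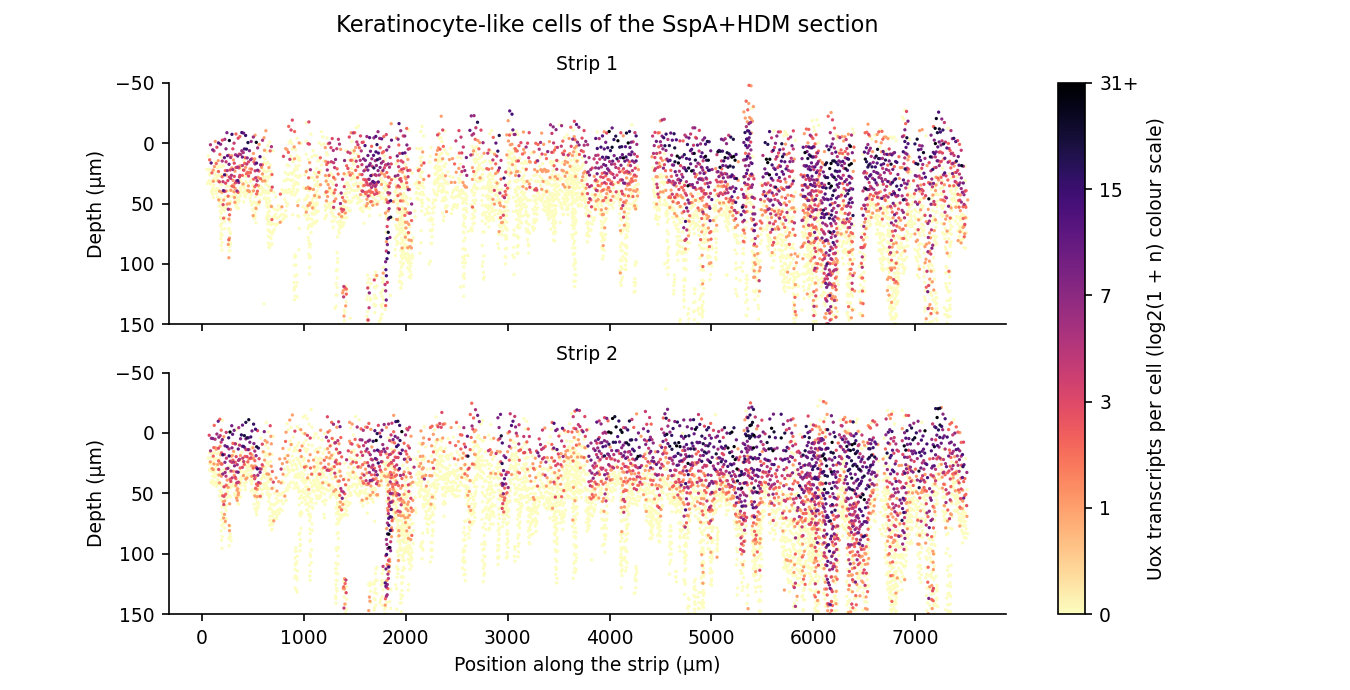
Keratinocyte-like cells of the SspA+HDM section by position along each strip (µm) and depth below the outer edge (µm, surface at the top), coloured by Uox transcripts per cell. Positive cells lined the outer 50 µm with gaps at like positions in both strips. A narrow column of positive cells ran inward at 1800 to 2000 µm in both. Of the Uox more than 50 µm deep, that interval held 9.09% and 12.8%. The broad stretch from 5200 to 7200 µm held 75.3% and 75.7% of it.

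Along the strips, Uox varied in the outermost cells themselves. In 200-µm intervals with at least 10 cells of cluster 11, its level ran from 1731 to 46604 CPM in strip 1 (37 intervals, median 16285) and from 1100 to 40838 CPM in strip 2 (38 intervals, median 14982). The share of positive cells was lowest at 1000 to 1200 µm in both strips, with 10 of 31 cells (32.3%; 16.7 to 51.4) and 6 of 20 cells (11.9 to 54.3%). It reached 100% elsewhere, for example in 28 of 28 cells of strip 2 at 3800 to 4000 µm (87.7 to 100). Thinned to 100 transcripts a cell, the interval at 1000 to 1200 µm held 12.1% and 9.55% positive cells, and the interval at 5000 to 5200 µm 92.2% and 83.9%. The cells of the poor interval had a median of 387 and 411.5 transcripts. The interval of the highest level, 5200 to 5400 µm, had the shallowest cells of all intervals in both strips, with a median of 121 and 243 transcripts against 406 and 443.75 for the median interval, and the part of this depth in its level was not tested. The next highest level was at 6400 to 6600 µm, with 33769 and 29223 CPM and a median of 146 and 320.5 transcripts.

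The strips matched in this pattern. Between the strips, the Uox level of cluster 11 correlated over 37 intervals with Pearson r = 0.96 and Spearman rho = 0.94, with the strips laid side by side without any shift. The outline of the edge itself correlated with r = 0.99. Whether both strips were cut from the same piece of skin is not in the labels, so their match is not independent support. Stretches picked after the values were seen show the size of the pattern. From 600 to 1200 µm the level was 2105 CPM (1581 to 2747) in strip 1 and 1762 CPM (1259 to 2399) in strip 2, and from 2000 to 2600 µm it was 3916 and 2757 CPM. Between them, from 1600 to 2000 µm, it was 12808 and 15061 CPM. From 5000 to 5600 µm it reached 35012 CPM (32743 to 37397) and 29634 CPM (28069 to 31263).

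Most other genes of cluster 11 varied less along the strips. The coefficient of variation of Uox between intervals was 66.2% in strip 1 and 64.2% in strip 2, the 4th highest of 37 genes and the 3rd highest of 38. The median gene had 30.7% and 29.0%, Stfa2l1 30.7% and 28.9%, and Krt16 17.2% and 15.4%. Tspan8, Lce1m and Il1r2 were more variable than Uox in strip 1, and Tspan8 and Lce1m in strip 2. Uox and its nearest gene in the likeness order did not keep a fixed proportion: for every 100 Stfa2l1 transcripts of cluster 11 there were 7.87 to 120 Uox transcripts in strip 1 and 6.25 to 93.4 in strip 2. At 1600 to 2000 µm there were 73.1 and 70.4, next to 9.85 and 8.21 at 600 to 1200 µm, although Stfa2l1 itself stood at 17517 and 21383 CPM in the first stretch and 21362 and 21449 CPM in the second.

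Genes were ordered by the lower r of both strips between their level and that of Uox in cluster 11. The first were Slc5a1, a sodium-glucose transporter (r = 0.83 and 0.75), Cnfn (0.76 and 0.74) and Cstdc4 (0.64 in both). The retinol-binding protein gene Rbp2 (0.70 and 0.61), Stfa2l1 (0.61 and 0.66) and Serpinb11 (0.61 and 0.62) followed. Krt16 (0.69 and 0.45) and Calm5 (0.45 and 0.44) came next. Among those that went against Uox were Sbsn, which encodes suprabasin (-0.74 and -0.58), Gm94 (-0.67 and -0.74), Lor (-0.69 and -0.65) and Tspan8 (-0.58 and -0.56). The points are intervals of 1 section, and the levels are shares of 1 total, so a high gene lowers the others.

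**Figure D4:**
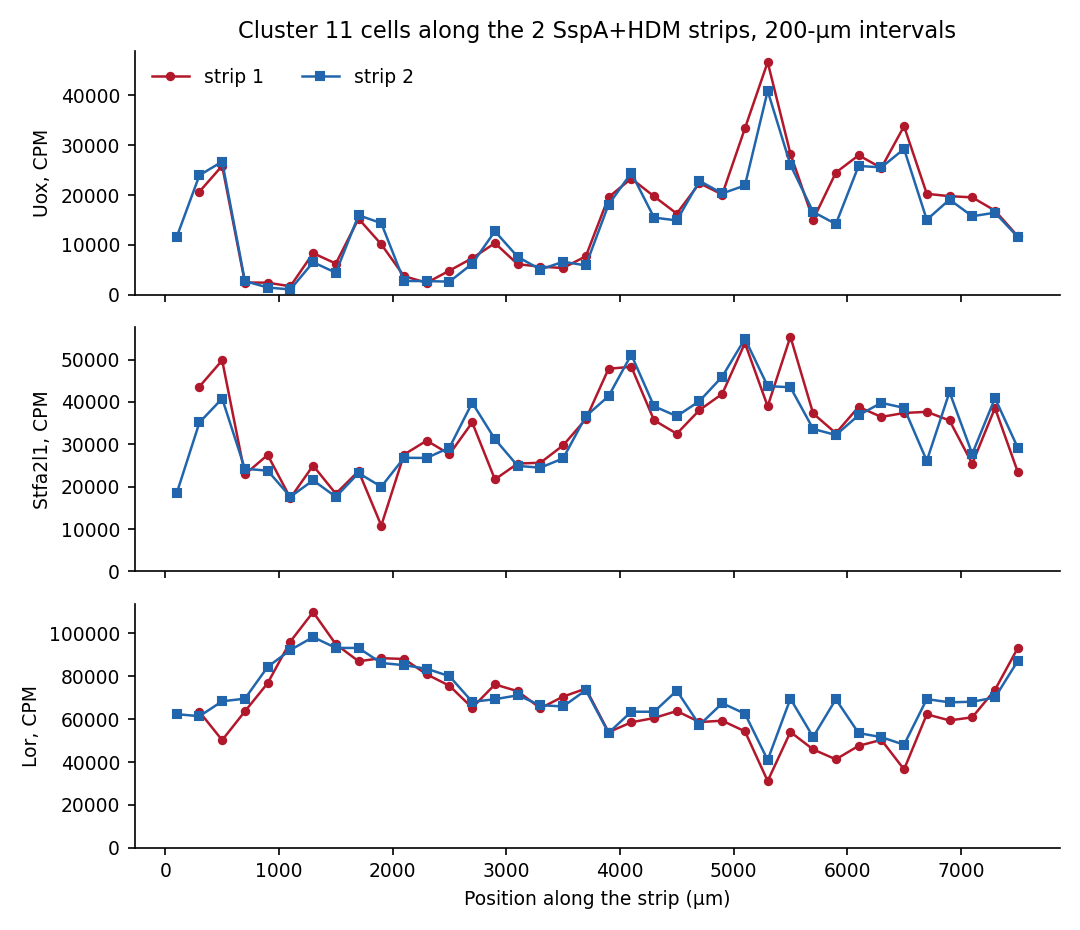
Level in cluster 11 cells (CPM) of Uox, Stfa2l1 and Lor by position along strip 1 (red circles) and strip 2 (blue squares) of the SspA+HDM section, in 200-µm intervals with at least 10 such cells. Uox was lowest at 1000 to 1200 µm in both strips (1731 and 1100 CPM) and highest at 5200 to 5400 µm (46604 and 40838 CPM), while Lor was low where Uox was highest.

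Cells also resembled their neighbours. Among the 6 nearest cells of the same cluster, 89.1% were positive around positive cells of cluster 11 and 65.1% around negative ones. In cluster 16 the shares were 86.3% and 49.1%, and in cluster 5 they were 68.9% and 33.7%. Among cluster 11 cells the number of Uox transcripts had a median of 4, with quartiles of 1 and 10, and a variance 8.01 times the mean.

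The 1822 positive cells of cluster 11 and its 347 negative cells lay at like depths (medians 8.31 and 8.79 µm). The positive cells had more transcripts, with a median of 439 against 250, in smaller outlines, with a median area of 186 against 221 square µm. The part of these differences in being called positive was not tested. As CPM, positive cells had more Slc5a1 (4896 against 2565 CPM), Ndrg1 (1793 against 945), Stfa2l1 (36255 against 20466), Serpinb11 (10039 against 5804) and Cstdc4 (13519 against 7933). They had less Lce1m (2606 against 5856), Il1r2 (3793 against 7279), Anxa8 (2492 against 4673), Gm94 (20474 against 31961) and Lor (66048 against 89673). Lce1m, a late cornified envelope gene, and Gm94 also led the outermost mock cluster, cluster 23. There Lce1m stood at 18289 CPM and Uox at 12.9 CPM (1.56 to 46.4). Both genes led the deeper mock cluster 7 too, and Gm94 was also among the leading genes of cluster 11. Lor and Il1r2 went the other way, at 51976 and 4248 CPM in cluster 23, nearer the positive cells than the negative ones.

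Over the whole SspA+HDM section, 31.9% of the Uox transcripts in cells (31.4 to 32.4) lay over a nucleus, close to the 31.6% of all panel transcripts. Since the outer cells have a smaller nuclear share in general, the comparison was made within clusters. In cluster 5, 46.5% of Uox (45.0 to 47.9) was nuclear against 38.8% of the panel, above 44 of the 52 genes with at least 1000 transcripts there, Uox counted among the 52. In cluster 16 the shares were 36.5% (35.5 to 37.6) and 28.7%, above 30 of 44. In cluster 11 they were 23.5% (22.8 to 24.1) and 20.1%, above 27 of 46. Of the 10 genes most like Uox, 9 had a lower nuclear share in clusters 11 and 16. In cluster 16 Cnfn had 32.9%, Stfa2l1 24.0%, Lor 23.5% and Ivl 21.2%. Serpinb11 had a higher one, 39.2% in cluster 16 and 32.8% in cluster 11. Of the 9311 nuclear Uox transcripts, 3479 were in cluster 11, 2876 in cluster 16 and 2084 in cluster 5. Nuclear Uox lay deeper, at a median of 31.2 µm against 22.2 µm for all Uox in cells. Uox transcripts in cells but not over a nucleus lay a median of 2.08 µm from one.

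**Figure D5:**
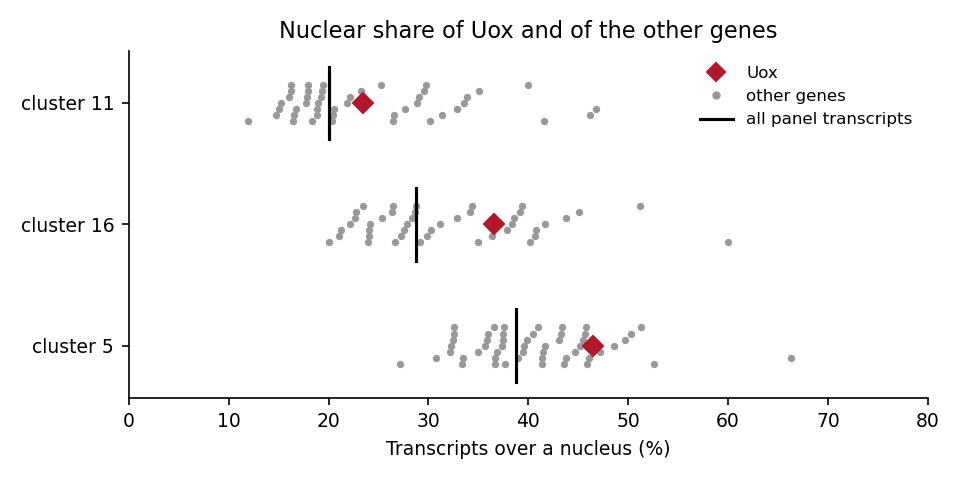
Percentage of transcripts over a nucleus in 3 clusters of the SspA+HDM section, for Uox (red diamond), the other genes with at least 1000 transcripts in the cluster (grey points) and all panel transcripts (black line). Uox lay to the right of the panel line in each cluster, at 46.5%, 36.5% and 23.5%.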

How the data were processed

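The authors deposited, per the file headers, a table of decoded transcripts for each section, with gene, position, cell, nuclear overlap and a quality score (qv), and a table of cell outlines. The decoding and segmentation software is not given in the sources used here. Transcripts kept the cell they were deposited with. Positions were taken as µm. Transcripts with a score of at least 20 were counted per outline and divided by the panel total, as CPM. Uox, its companion genes and the gene lists were chosen with earlier results of these data known.

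Cells with at least 20 transcripts were clustered on all genes but Uox (30 principal components, 15 neighbours, Leiden resolution 1; leidenalg 0.10.2, Python 3.11.15). No doublet caller was run. The sections shared 0 cell identifiers. A cluster was named from at least 3 detected markers and, by a rule added after the data were seen, a marker among its 3 leading genes. Epithelial cells were keratinocyte- and hair-follicle-like clusters and clusters where Trim29, Dsc3, Serpinb5 and S100a14 together made up 8% or more. The outer edge was the 2nd percentile of epithelial cells in 50-µm bins, smoothed over 5 bins, and depth was corrected for the slope. Thinned shares are expected shares at 100 transcripts a cell.

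No test was run. Intervals are exact Poisson (sums), conditional binomial (ratios) and Clopper-Pearson (shares). In simulated Poisson counts the interval held the set ratio for 95.7% of 327 genes. This checks the calculation only, since the intervals assume such counts. The genes named are Uox, the 10 most and 5 least like it among epithelial cells, list members on the panel, and others said to be picked after their values were seen or leading a stated order. Alternatives changed the quality minimum, the denominator, the cells, the clustering resolution, the edge and the strips. Of the genes ordered by their likeness to Uox along the strips, 1 is not reported here.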

Additional observations from a re-analysis of the deposited data

How the results depend on the processing

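The log2 ratio of Uox kept its direction under each of the 12 alternatives. It moved beyond its counting interval with all calls (6.97), over nuclei (7.54), in epithelial cells (9.72) and per mm of strip (10.08). The share of positive SspA+HDM cells was 9.16% and 4.66% with at least 2 and 5 transcripts, 15.2% with all calls, 12.4% at a score of 30, 8.45% over nuclei and 14.4% in cells with at least 40 transcripts. The keratinocyte-like share of Uox was 98.9% at resolution 0.5, 97.7% with SspA+HDM clustered alone, 98.4% over nuclei, and 85.6% at resolution 2, where the share in epithelial cells was 99.0% as before and some epithelial clusters were left unnamed. The nuclear share was 31.1% with all calls, and 31.3% and 32.6% without strip 1 and strip 2. The median depth was 32.1 and 11.1 µm with an edge at the 0th and 5th percentile, 26.7 µm with 100-µm bins, 31.2 µm over nuclei, and 22.9 and 21.6 µm without strip 1 and strip 2. Of the 10 genes most like Uox, 4 stayed among the first 10 within cluster 11, an alternative added after the data were seen, and 7 to 10 under the other 6 alternatives. The cause of these moves was not tested. The number of transcripts limits the mock values most, which rest on 25.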
